A study of Homo sapiens with 2 samples.

Results

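The genes described are ACTB and ACTG1 for the cytoplasmic actins, ACTN1 and ACTN4 for the non-muscle alpha-actinins, TPM1, TPM2, TPM3 and TPM4 for the tropomyosins, and TAGLN and TAGLN2 for the transgelins. They were taken as the rows of both count tables whose Ensembl identifiers carry these symbols in GENCODE release 44, which gave 10 of the 58735 genes. The identifiers are ENSG00000075624 (ACTB), ENSG00000184009 (ACTG1), ENSG00000072110 (ACTN1), ENSG00000130402 (ACTN4), ENSG00000140416 (TPM1), ENSG00000198467 (TPM2), ENSG00000143549 (TPM3), ENSG00000167460 (TPM4), ENSG00000149591 (TAGLN) and ENSG00000158710 (TAGLN2). RNA came from MCF10a-Snail-ER cells, a derivative of the non-tumorigenic human mammary epithelial line MCF10a that stably expresses the repressor Snail fused to the estrogen receptor. Tamoxifen at 100 nM, which frees the fusion to act, was given for 1 day, the opening step of an epithelial-to-mesenchymal transition (EMT). Per the labels, parental cells kept their morphology, transcription and splicing under the same tamoxifen. Polyadenylated RNA was sequenced as 1 Nanopore direct RNA library on the MinION, in which unamplified RNA strands are read, and as 1 Illumina library from a TruSeq stranded mRNA kit, and the series calls the RNA of both matched. Both groups carry the fusion and the tamoxifen, and no untreated library was analysed here, so the values describe the 2 platforms and no change during EMT. In bulk RNA of this kind, fewer cells that express a gene and less of its RNA per cell cannot be told apart.

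Stress fibres are bundles of actin filaments held together by alpha-actinin, lined by tropomyosin and pulled by non-muscle myosin, and they form prominently when epithelial cells take on mesenchymal shape. Beta-actin and gamma-actin differ by a few residues near the start of the protein, while the tropomyosin genes each make several isoforms by alternative promoters and splicing. Transgelin (also called SM22) binds actin and is a classical marker of smooth muscle and of mesenchymal change, and transgelin-2 is its broadly expressed relative.

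The libraries held 403235 counts by Nanopore and 191741714 by Illumina, so 1 Nanopore count stood for 2.48 CPM (counts per 1000000 of the library's total) and the smallest level taken as detectable, 3 counts, for 7.44 CPM. With 1 library per platform no difference has a replicate check. All intervals are 95% intervals that cover counting error only, and the tests compare these 2 libraries. Of the basal epithelial markers, the keratins were abundant in both libraries: KRT5 stood at 1686 CPM by Nanopore and 1447 CPM by Illumina, and KRT14 at 798.5 and 611.3 CPM. KRT17 was at 533 and 290 CPM and KRT6A at 293 and 253 CPM, while the transcription factor TP63 was low, at 12.4 CPM by Nanopore and 33.2 CPM by Illumina. All 5 were detected in both libraries, with summed levels of 3323 and 2635 CPM. Of 5 smooth muscle markers, CNN1, DES and LMOD1 had no count in either library, MYH11 had 1 Nanopore count and ACTA2 had 10. Fibroblast markers ranged by Illumina from 0.141 CPM (PDGFRB) to 26.5 CPM (DCN), and by Nanopore COL1A1, COL3A1 and PDGFRB were at 0, COL1A2 had 1 count and DCN 10. Endothelial markers were all at 0 by Nanopore, with a summed Illumina level of 5.16 CPM, nearly all of it PECAM1. Of the leukocyte markers, PTPRC had 0 Nanopore and 2 Illumina counts, and CD14 was at 12.4 and 10.9 CPM.

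The paralogs are close in coding sequence, and how close they are bears on whether a read can be placed. Beta-actin and gamma-actin coding sequences were 1125 bases each and 91.3% identical, with 98 differences spread so that the longest identical run was 59 bases.

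The stretch with the most differences, 13 in 60 bases, lies at coding bases 46 to 105 in exon 2 of both canonical transcripts (ACTB at chr7:5529553-5529612 and ACTG1 at chr17:81512250-81512309, hg38, both on the minus strand). It is shown because reads of the actins separate easily there. It reads 5′ to 3′ with the differing bases in capitals.
ACTB: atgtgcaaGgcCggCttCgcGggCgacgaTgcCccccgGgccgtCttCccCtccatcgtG
ACTG1: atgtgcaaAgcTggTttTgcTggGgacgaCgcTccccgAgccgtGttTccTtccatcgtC

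The actinins share their longest identical run, 73 bases, in exon 10 of both genes, although their coding sequences were only 82.1% identical over the aligned 2676 bases. The following 60 bases of that run (ACTN1 at chr14:68892115-68892174 on the minus strand and ACTN4 at chr19:38717195-38717254 on the plus strand, hg38) are the same in both genes and are given once, since a read inside them cannot be assigned to either.
ACTN1 and ACTN4: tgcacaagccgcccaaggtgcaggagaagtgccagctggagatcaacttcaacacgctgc

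For most of the genes such stretches were a small part of each transcript. Of the 50-base words of the canonical transcript, 10.9% also occurred in another gene for ACTB and 4.23% for ACTG1, nearly all in pseudogenes and, for ACTB, in POTE genes, a primate family of which some members carry an actin-like end. Only 10 words were shared between ACTB and ACTG1 themselves, and 34 between ACTN1 and ACTN4. TPM1 and TPM2 shared none. TPM3 shared 6.5% of its words with 191 genes, counted over the whole transcript. Of these genes 138 had at least 10 counts in either library, among them the pseudogenes TPM3P5 and ENSG00000234337 with 549 and 305 Illumina counts. The most words of TPM3, 256, were shared with a same-strand gene model inside TPM3 itself, which had 0 Nanopore and 7 Illumina counts. TPM4 shared 23.6% of its words with 2 genes, and TAGLN2 shared 10.9% with 1 gene, TAGLN2P1. For TAGLN the share was 65.5%, all with ENSG00000280143, a same-strand gene model that overlaps the last part of its long canonical transcript. None of the coding words of TAGLN was shared. Of the words in the coding part alone, TPM4 shared 36.4%, TAGLN2 26.5%, ACTB 17.8%, TPM3 13.4%, ACTG1 7.34%, ACTN4 4.73% and ACTN1 1.26%. The tropomyosin coding sequences were 68.2% to 80.2% identical between pairs and the transgelins 70.9%.

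Together the 10 genes held 2229 Nanopore counts, 0.553% of that library (exact interval 0.530 to 0.576%), and 2000123 Illumina counts, 1.04% of that library. By an exact conditional binomial test with Benjamini-Hochberg adjustment over 12414 genes (those averaging 5 CPM or more), 9 of the 10 were called higher by Illumina in CPM, where 27.2% of tested genes were, and 0 were called higher by Nanopore, where 20.2% were. Of those 9, ACTG1, ACTN1, TPM3, TPM4 and TAGLN changed sign on at least 1 scale that takes length into account. The tested genes reach down to a mean of 5 CPM, where few Nanopore counts make a call less likely. The shares called thus set genes of unlike counts side by side. With the fold alone, 3 of 10 (ACTB, ACTN4 and TPM3) were at least 2-fold higher by Illumina, a share near the 30.2% among tested genes, and 0 were at least 2-fold higher by Nanopore, against 19.2%. A ratio here has Nanopore CPM plus 1 on top and Illumina CPM plus 1 below, on the log2 scale, and each interval is that of the count ratio. The median ratio of the 10 genes was −0.90, and that of all tested genes was −0.42. Among all tested genes the median depended on length: it was 1.21 in the fifth of genes with the shortest exon union, −0.23 in the next (which holds TPM2 and TAGLN2), −0.58 in the middle (ACTB and ACTG1), −0.77 in the next (ACTN4 and TAGLN) and −0.91 in the longest (ACTN1, TPM1, TPM3 and TPM4). Beside genes of like length, ACTG1, ACTN1, TPM4 and TAGLN lay within 0.2 of that median, TPM1 lay above it by more, and ACTB, ACTN4, TPM2, TPM3 and TAGLN2 lay below it by more.

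**Figure D1:**
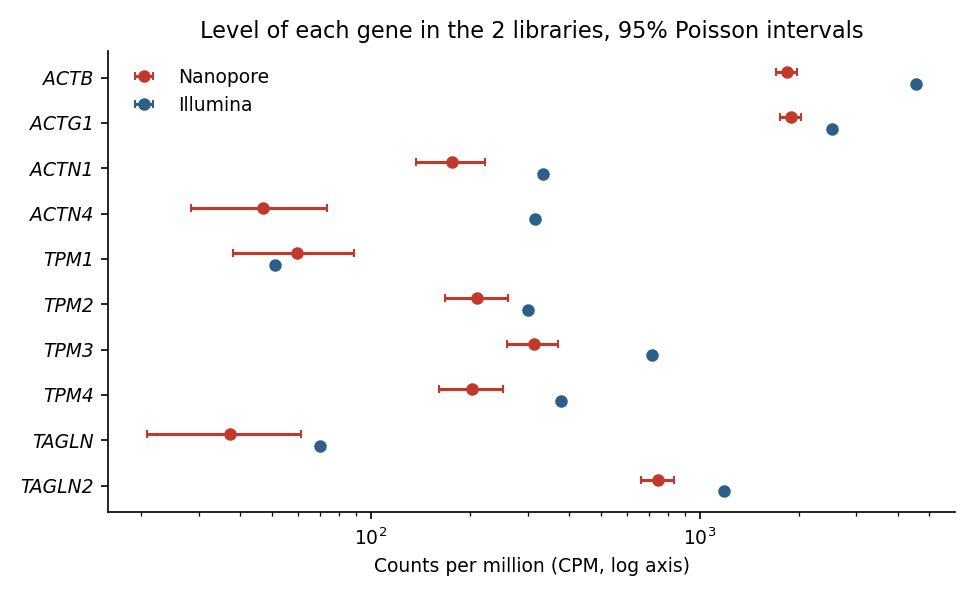
Level of each gene in CPM (horizontal log axis) in the Nanopore library (red) and the Illumina library (blue), with 95% exact Poisson intervals. Every gene but TPM1 sits further right in blue, and the gap is widest for ACTN4, at 47.1 CPM by Nanopore and 315 CPM by Illumina.

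Beta-actin, the main actin of motile and stress fibre arrays in non-muscle cells, had 743 Nanopore counts, 1843 CPM (1712 to 1980), and 872564 Illumina counts, 4551 CPM (4541 to 4560). It was 2.47-fold higher by Illumina, a log2 ratio of −1.30 (−1.41 to −1.20) with an exact binomial adjusted p of 3.58e-182 (Benjamini-Hochberg). Gamma-actin, which is enriched in the cell cortex, had 763 Nanopore counts, 1892 CPM (1760 to 2031), and 484892 Illumina counts, 2529 CPM (2522 to 2536). Its ratio was −0.42 (−0.52 to −0.32), close to the median of all tested genes, with an exact binomial adjusted p of 5.65e-16 (Benjamini-Hochberg).

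The order of the pair thus differed between libraries: ACTB led by Illumina and the actins were level by Nanopore. Beta-actin made up 49.3% of the 1506 actin counts by Nanopore (exact interval 46.8 to 51.9%) and 64.3% of the 1357456 by Illumina (64.2 to 64.4%), a difference of −14.9 percentage points that does not depend on how the libraries are scaled. Fisher's exact test of the difference gave an adjusted p of 2.03e-31 over the 7 family shares compared. Canonical transcripts of both genes have 6 exons and nearly the same length, 1812 bases for ACTB and 1919 for ACTG1. Dividing the Illumina counts by those lengths put the beta-actin share at 65.6%, and dividing both libraries gave 50.8% by Nanopore and 65.6% by Illumina. By mean transcript length the Illumina share was 72.0% and by the union of exons 62.3%, so ACTB had the smaller share by Nanopore on each of these scales.

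Alpha-actinins cross-link antiparallel actin filaments and anchor them at adhesions. ACTN1 had 71 Nanopore counts, 176 CPM (138 to 222), and 64005 Illumina counts, 333.8 CPM (331 to 336). ACTN4, also found in the nucleus and at the leading edge of migrating cells, had 19 Nanopore counts, 47.1 CPM (28.4 to 73.6), and 60439 Illumina counts, 315 CPM (313 to 318). The actinins were thus nearly level in Illumina counts and far apart by Nanopore, with no overlap of the Nanopore intervals. ACTN4 shares exonic bases with CAPN12, whose counts are given with the overlapping genes.

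ACTN1 had a log2 ratio of −0.92 (−1.28 to −0.59; exact binomial adjusted p = 1.74e-08, Benjamini-Hochberg). For ACTN4 the ratio was −2.72 (−3.47 to −2.10; exact binomial adjusted p = 2.65e-31, Benjamini-Hochberg), 6.69-fold higher by Illumina and lower than the ratio of all but 3.49% of tested genes. It was the only one of the 10 genes past 4-fold, a size that 8.14% of tested genes reached in this direction and 12.9% in the other. ACTN1 made up 78.9% of the 90 actinin counts by Nanopore (69.0 to 86.8%) and 51.4% by Illumina (51.2 to 51.7%), with an adjusted p of 3.98e-07 by Fisher's exact test over the 7 shares. With the Illumina counts divided by canonical length, 3722 bases for ACTN1 and 4990 for ACTN4, the Illumina share of ACTN1 became 58.7%. By mean transcript length it was 46.4% and by union exonic length 31.2%, so that ACTN1 had the larger share by Nanopore on each of them.

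**Figure D2:**
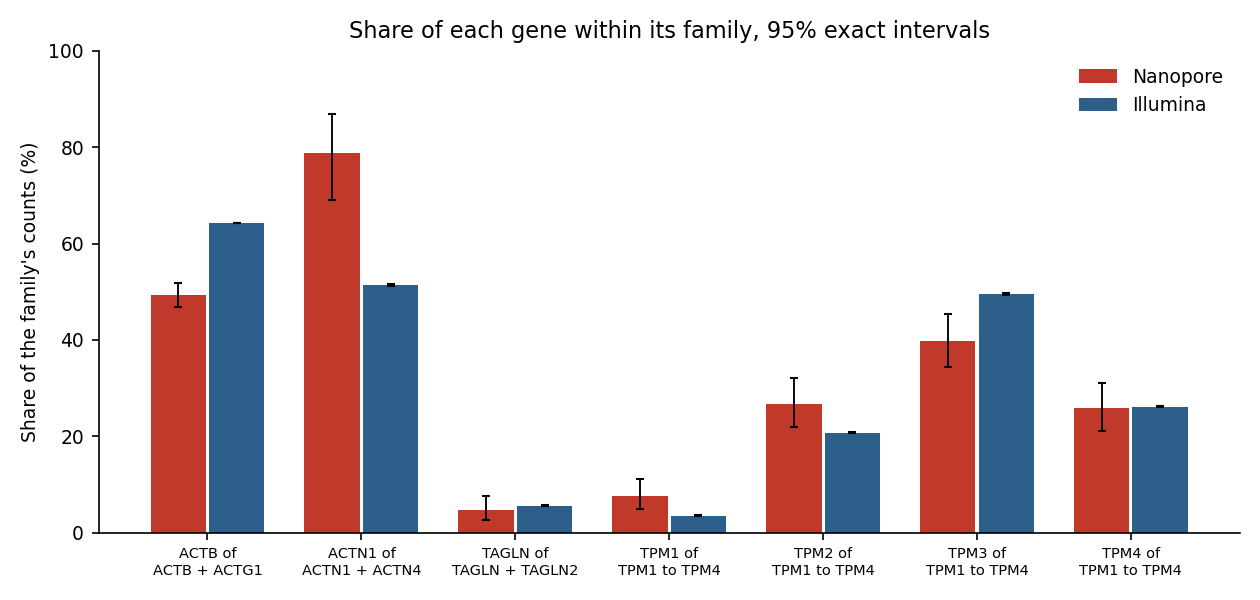
Share of the family's counts (vertical axis, %) held by ACTB among the actins, ACTN1 among the actinins, TAGLN among the transgelins and each tropomyosin among the 4, by Nanopore (red) and Illumina (blue), with 95% exact binomial intervals. The bars for ACTB (49.3 and 64.3%) and ACTN1 (78.9 and 51.4%) are farthest apart, and those for TPM4 (25.9 and 26.2%) are level.

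Tropomyosins run along the filament groove and set which myosins and severing proteins can act there. TPM3 was the highest of the 4 in counts, with 126 by Nanopore, 312.5 CPM (260 to 372), and 137384 by Illumina, 716.5 CPM (713 to 720). TPM4 had 82 Nanopore counts, 203 CPM (162 to 252), and 72546 Illumina counts, 378 CPM (376 to 381). TPM2 had 85 Nanopore counts, 211 CPM (168 to 261), and 57563 Illumina counts, 300.2 CPM (297.8 to 302.7). All of these were lower by Nanopore, with Nanopore intervals that lay entirely below the Illumina level. TPM1, whose low molecular weight products and high molecular weight products come from separate promoters, had 24 Nanopore counts, 59.5 CPM (38.1 to 88.6), and 9776 Illumina counts, 51.0 CPM (49.98 to 52.01). For TPM1 the Nanopore interval contained the Illumina level.

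The log2 ratio was −1.19 for TPM3 (−1.46 to −0.95; exact binomial adjusted p = 1.09e-25, Benjamini-Hochberg) and −0.89 for TPM4 (−1.23 to −0.58; 4.04e-09). That of TPM2 was −0.51 (−0.83 to −0.20; exact binomial adjusted p = 0.00222, Benjamini-Hochberg). TPM1 had the only CPM ratio above 0 among the 10 genes, 0.22 (−0.42 to 0.80), with an exact binomial adjusted p of 0.629 (Benjamini-Hochberg), and at 24 Nanopore counts a difference inside that interval was not detectable.

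Of the 317 tropomyosin counts by Nanopore TPM1 took 7.57% (4.91 to 11.1%), and of the 277269 by Illumina it took 3.53% (3.46 to 3.60%; adjusted p = 0.00103 by Fisher's exact test over the 7 shares). TPM2 held 26.8% (22.0 to 32.0%) and 20.8%, with an adjusted p of 0.0143 by the same exact test, and TPM3 held 39.7% (34.3 to 45.4%) and 49.5%, with an adjusted p of 0.00103. TPM4 held 25.9% and 26.2% (exact adjusted p = 0.949), and the Nanopore interval of 21.1 to 31.1% is what this depth allows. The larger TPM2 share and the smaller TPM3 share by Nanopore reversed when the Illumina counts were divided by canonical length: TPM2 then had 46.0% and TPM3 18.5% by Illumina, while TPM1, at 7.64%, was level with Nanopore. The canonical TPM3 transcript is 7064 bases, of which 855 code, whereas the mean over its 27 annotated transcripts is 1607 bases, and gene counts do not show which were present.

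Of the transgelins, TAGLN2 was the more abundant in both libraries. TAGLN2 had 301 Nanopore counts, 746.5 CPM (664.5 to 836), and 227492 Illumina counts, 1186 CPM (1182 to 1191). TAGLN had 15 Nanopore counts, 37.2 CPM (20.8 to 61.4), and 13462 Illumina counts, 70.2 CPM (69.0 to 71.4). Both were lower by Nanopore, TAGLN with the fewest Nanopore counts of the 10 genes.

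The ratio of TAGLN2 was −0.67 (−0.84 to −0.51; exact binomial adjusted p = 5.24e-17, Benjamini-Hochberg). For TAGLN it was −0.90 (−1.75 to −0.19; exact binomial adjusted p = 0.0224, Benjamini-Hochberg), a call that was lost with median-ratio scaling (adjusted p = 0.0644 by the same exact test). TAGLN made up 4.75% of the 316 transgelin counts by Nanopore (2.68 to 7.71%) and 5.59% by Illumina (5.50 to 5.68%), with an adjusted p of 0.727 by Fisher's exact test. The split between the transgelins was therefore not distinguishable between the libraries at this depth.

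Levels of different genes can be compared only where length is taken into account, since a fragmented library yields more counts from a longer transcript, whereas a direct RNA read comes from 1 strand. With the Illumina counts divided by canonical transcript length and scaled to the same total as CPM (TPM), the order was ACTB (3892 TPM), ACTG1 (2042), TAGLN2 (1337), TPM2 (391), TPM4 (237), TPM3 (157), ACTN1 (139), ACTN4 (97.9), TPM1 (64.9) and TAGLN (28.7). The order of Nanopore CPM, not divided by length, was ACTG1, ACTB, TAGLN2, TPM3, TPM2, TPM4, ACTN1, TPM1, ACTN4 and TAGLN. In that order the neighbours ACTG1 and ACTB had overlapping intervals, as had TPM2, TPM4 and ACTN1 among themselves and TPM1, ACTN4 and TAGLN among themselves. TAGLN2 stood apart from its neighbours on both sides, and TPM3 did not overlap ACTN1 or TPM4 but touched TPM2 at its lower end.

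Because of this, each ratio was also taken between Nanopore CPM and Illumina TPM, with 3 definitions of gene length. Division by canonical length moved the median ratio of all tested genes from −0.42 to 0.48, and each gene is read against that shift. On this scale 9 of 10 lay below the all-gene median, and the exception was TPM3, at 0.99 (0.73 to 1.24). ACTB and ACTN4, 2 of 10, were at least 2-fold lower by Nanopore (11.1% of tested genes), 0 were at least 2-fold higher (34.8%), and 3 had a ratio above 0 (65.1%).

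By mean transcript length 7 of 10 lay below the all-gene median of 0.07. ACTB and ACTN4 were again at least 2-fold lower by Nanopore (17.9% of tested genes), 0 of 10 were at least 2-fold higher (25.1%), and 4 had a ratio above 0 (52.2%). By the union of all exons, which sums every annotated exon and so overstates the length of genes with many isoforms, 6 of 10 lay below the all-gene median of 0.42. There 4 of 10 (ACTN1, TPM1, TPM3 and TPM4) were at least 2-fold higher by Nanopore (33.2% of tested genes), ACTN4 alone was at least 2-fold lower (12.8%), and 6 had a ratio above 0 (63.1%). Those 4 genes have the longest unions of the 10, from 12375 bases for TPM4 to 15130 for TPM3.

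ACTB, ACTN4, TPM2 and TAGLN2 kept a ratio below 0 on all of these scales. ACTB had −1.08, −1.20 and −0.60 by canonical, mean and union length, and ACTN4 had −1.04, −1.82 and −1.55. TAGLN2 had −0.84, −0.78 and −0.93, and TPM2 had −0.89, −0.71 and −0.28, the last with an interval that reached 0.03. ACTN1 was below 0 in CPM and above 0 on all 3 length scales, at 0.34, 0.26 and 1.47, and its interval lay above 0 by union length only. The direction of TPM3 depended on the length chosen, at 0.99 by canonical, −0.77 by mean and 1.28 by union length, each with an interval that excluded 0, and that of ACTG1 did so by smaller amounts, at −0.11, 0.20 and 0.16. The lengths of TPM3 on these scales were 7064, 1607 and 15130 bases.

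**Figure D3:**
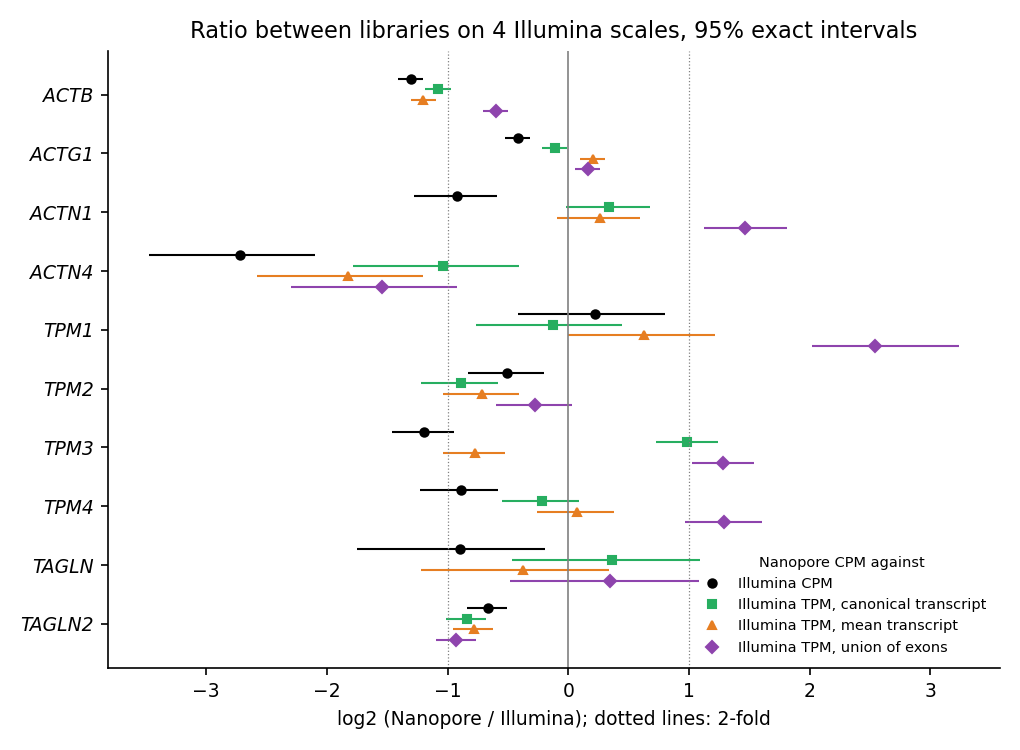
Log2 ratio of Nanopore CPM to Illumina CPM (black circles) or to Illumina TPM by canonical (green squares), mean (orange triangles) or union exonic length (purple diamonds), with 95% exact intervals of the count ratio and dotted lines at 2-fold. ACTB, ACTN4, TPM2 and TAGLN2 lie left of 0 on all 4 scales, and TPM3 runs from −1.19 in CPM to 1.28 by union length.

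Several of the 10 genes overlap another gene, and the labels do not say how a read that falls on both was counted or whether strand was used, without which reads of a gene and of its antisense partner cannot be told apart. In hg38 ACTN4 (chromosome 19, 38647649 to 38731589, plus strand) overlaps at its 3′ end the calpain gene CAPN12 (38730187 to 38769904, minus strand), with which it shares 868 exonic bases. CAPN12 had 19 Nanopore counts, the same number as ACTN4, and 5357 Illumina counts, 8.86% of those of ACTN4. The Nanopore count of ACTN4 was therefore matched by its antisense neighbour and its Illumina count was not. Whether the same reads lie behind both counts was not tested.

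TPM1 (chromosome 15, 63042620 to 63071915, plus strand) showed a like pattern with ENSG00000259627, a long non-coding gene on the other strand at its 3′ end (63070025 to 63071911). That gene had 23 Nanopore counts beside the 24 of TPM1, and 645 Illumina counts beside 9776. TPM1-AS, which lies antisense over the first part of TPM1 (63046034 to 63049387), had 8 Nanopore and 100 Illumina counts. Relative to TPM1 both antisense genes stood much higher by Nanopore, at 95.8% and 33.3% of its count, than by Illumina, at 6.60% and 1.02%.

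ENSG00000279198, a gene model of unsettled status at 16074292 to 16077395 on chromosome 19, opposite TPM4 (16067021 to 16103002, plus strand), had 28 Nanopore and 455 Illumina counts, 34.1% and 0.627% of the counts of TPM4. TAGLN (chromosome 11, 117199370 to 117207464, plus strand) overlaps the proprotein convertase gene PCSK7 on the other strand, with 2233 shared exonic bases. PCSK7 had 21 Nanopore counts beside the 15 of TAGLN and 13320 Illumina counts beside 13462, so there both libraries placed the neighbours near each other. ENSG00000280143, on the same strand as TAGLN, had 46.7% of its count by Nanopore and 45.9% by Illumina.

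The other 6 genes overlap no gene with 10 or more Nanopore counts. Over these 6 the median ratio was −0.79, and 2 of them, ACTB and TPM3, were at least 2-fold higher by Illumina. That share lay near the 30.2% among all tested genes and the 37.2% among tested genes that overlap no other gene. TPM2 (chromosome 9, 35681992 to 35690056) and TAGLN2 (chromosome 1, 159918107 to 159925507) overlap no annotated gene at all, and both were lower by Nanopore. Among the genes counted, ACTB (chromosome 7, 5526409 to 5563902) and ACTG1 (chromosome 17, 81509413 to 81523847) overlap only genes with 0 Nanopore counts. By Illumina a pseudogene on the strand opposite ACTB had 18 counts, beside the 872564 of ACTB. ACTG1 also overlaps a gene model that was not counted in either library. ACTN1 (chromosome 14, 68874128 to 68979440) and TPM3 (chromosome 1, 154155308 to 154194648) likewise overlap only genes with 0 Nanopore counts.

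**Figure D4:**
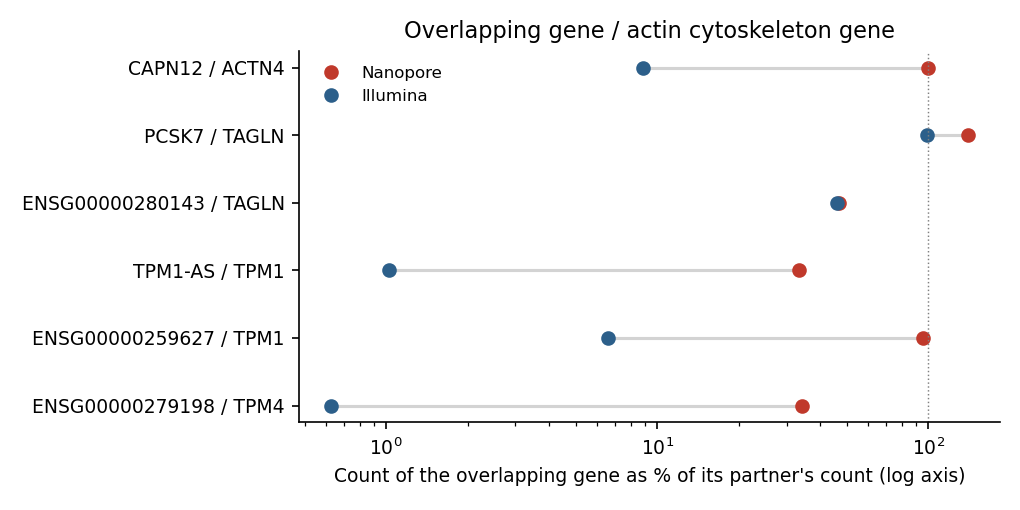
Count of each overlapping gene as a percentage of the count of its partner (horizontal log axis) by Nanopore (red) and Illumina (blue), for the overlapping genes with any Nanopore count. CAPN12 stands at 100% of ACTN4 by Nanopore and 8.86% by Illumina, while ENSG00000280143 stands at 46.7% and 45.9% of TAGLN.

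Processed pseudogenes, intronless copies of an mRNA elsewhere in the genome, are numerous for the actins. The tables held 48 pseudogenes named after these genes, 21 of them after ACTG1, 11 after ACTB and 9 after TPM3. By Nanopore only TPM3P9 had counts, 2 in all, and by Illumina 26 of the 48 had counts, 4077 in all or 0.204% of the counts of the 10 genes. The largest were TAGLN2P1 with 1877 Illumina counts, TPM3P9 with 614, TPM3P5 with 549 and TPM4P3 with 426. The other 12 with at least 10 counts were ACTBP2 with 110, ACTN4P1 with 108, and TPM3P6, ACTBP11, ACTG1P17, ACTG1P3, TPM3P8, ACTG1P9, ACTG1P20, ACTG1P14, ACTG1P25 and ACTG1P1 with 85 to 11. Scaled to the Nanopore total, the 4077 Illumina counts would be 8.57 counts, beside the 2 counted by Nanopore. Whether depth accounts for the low Nanopore count was not tested. Outside the named copies, POTEKP shared 17 words with ACTB and had 0 Nanopore and 657 Illumina counts, and POTEE shared 56 and had 0 and 34. Against the 261 alternate contigs of hg38, 0 of the 10 canonical transcripts aligned over at least 80% of their length with at most 5% divergence.

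Other paralogs of these genes, among them the muscle actins and muscle actinins, were low in both libraries. ACTA2, the smooth muscle actin that also marks myofibroblasts, had 10 Nanopore counts, 24.8 CPM (11.9 to 45.6), and 3672 Illumina counts, 19.15 CPM, a ratio of 0.36 (−0.69 to 1.25; exact binomial adjusted p = 0.626, Benjamini-Hochberg). The other 7 (ACTA1, ACTC1, ACTG2, ACTBL2, ACTN2, ACTN3 and TAGLN3) had 0 Nanopore counts, for which the exact 95% interval reaches 9.15 CPM. By Illumina TAGLN3 had 94 counts and ACTG2 41, and ACTA1 and ACTN2 had none.

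The rest of the stress fibre machinery was taken from lists of 7 myosin genes, 22 cross-linkers and anchors and 14 regulators. At 5 CPM or more on average, 40 of these 43 were tested. The exact binomial test called 24 of them higher by Illumina (27.2% of all tested genes) and 1 higher by Nanopore (20.2%). As for the 10 genes, these shares were not matched for level. At 2-fold the counts were 16 (30.2%) and 1 (19.2%). The median CPM ratio was −0.85, beside −0.90 for the 10 genes and −0.42 for all tested genes. Division of the Illumina counts by canonical length turned the list's median to 0.26, beside the all-gene median of 0.48 on that scale.

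Among the myosins, the heavy chains had lower CPM ratios than the light chains MYL6, MYL12A and MYL12B. MYH9, the main non-muscle heavy chain, was at 174 CPM by Nanopore and 485 CPM by Illumina, a ratio of −1.48. MYH10 was at 27.3 and 108.5 CPM, a ratio of −1.95 (−2.99 to −1.15) on 11 Nanopore counts. The light chains MYL12A and MYL12B had ratios of −0.10 and −0.40, and MYL6 had −0.75. By canonical length the order turned around: MYH9 had 0.78 and MYH10 0.31, while MYL6 had −1.88, MYL12B −0.82, MYL12A −0.80 and MYL9 −0.11. MYL9, the light chain of smooth muscle and a frequent companion of TAGLN, had 3 Nanopore counts and 14.6 CPM by Illumina. Its CPM ratio was −0.89 (−3.25 to 0.58). That interval holds the ratios of both heavy chains, so the place of MYL9 in the order is not settled.

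Among cross-linkers and anchors, 8 of 21 tested genes were at least 2-fold higher by Illumina (30.2% of all tested genes) and 0 higher by Nanopore (19.2%). The lowest CPM ratios included those of TLN1 (talin, which links integrins to actin), at 79.4 CPM by Nanopore and 294.6 CPM by Illumina, a ratio of −1.88, and FLNA (filamin A), at 238 and 789 CPM, a ratio of −1.72. By canonical length both lay above 0, at 0.57 and 0.72, so their direction holds in CPM only. At the other end were PDLIM1 with a CPM ratio of 0.02, ZYX (zyxin, which marks strained stress fibres) with −0.00208 and PDLIM7 with −0.30, none of which passed the exact binomial test. By canonical length PDLIM1 had −0.09, ZYX 0.52 and PDLIM7 −0.15.

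Of the 13 regulators tested, 6 were at least 2-fold higher by Illumina (30.2% of all tested genes) and 1, RHOB, higher by Nanopore (19.2%). RHOB, a small GTPase, had 44 Nanopore counts, 109 CPM, and 5093 Illumina counts, 26.6 CPM, a ratio of 2.00 (1.58 to 2.46; exact binomial adjusted p = 4.77e-13, Benjamini-Hochberg). The next highest were MRTFA, a coactivator that actin monomers hold in the cytoplasm, with 0.13, and RHOA with −0.29. PPP1R12A, the myosin phosphatase targeting subunit, had the lowest CPM ratio, −2.01 (−3.99 to −0.76), on 4 Nanopore counts. DIAPH3 had −1.68 (−3.05 to −0.69) on 7 and SRF −1.66 (−3.18 to −0.61) on 6. These intervals overlap, so the order is not settled. By canonical length PPP1R12A had −0.24, DIAPH3 −0.12 and SRF −0.26, and RHOB had 2.58, MRTFA 1.57 and RHOA −0.07.

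**Figure D5:**
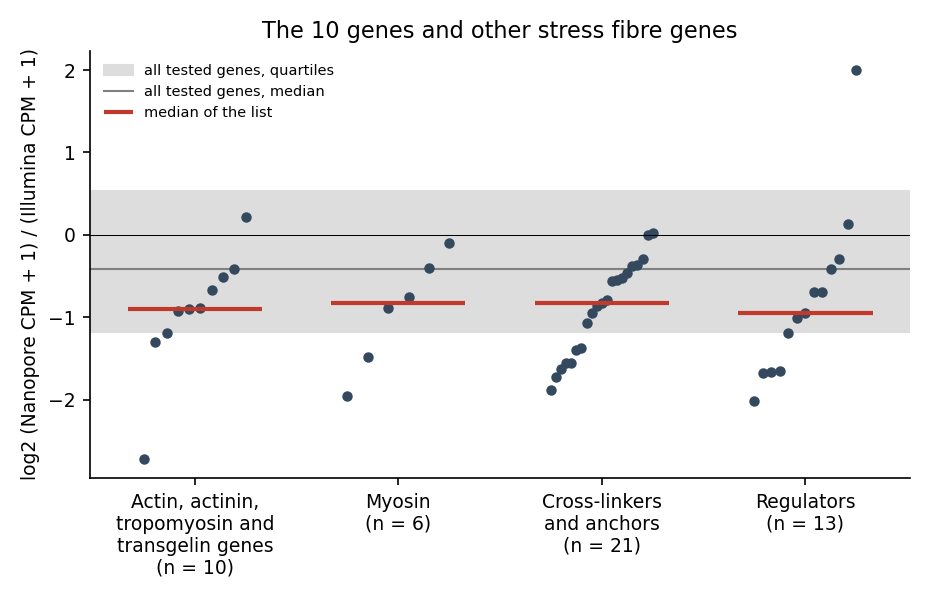
Log2 ratio of Nanopore CPM plus 1 to Illumina CPM plus 1 (vertical axis) for the 10 genes and for the tested genes of 3 lists of stress fibre genes, 1 point a gene, with list medians in red and the quartiles of all tested genes as a grey band (−1.18 to 0.54). Medians lie between −0.95 and −0.82, below the all-gene median of −0.42, and RHOB is the single point near 2.

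SRF binds the CArG box, a motif of 10 bases with an A/T-rich core that controls many actin cytoskeleton genes, and SRF itself had 6 Nanopore counts, 14.9 CPM (5.46 to 32.4), and 49.3 CPM by Illumina. The motif, whose pattern is its own reverse complement so that 1 search covers both strands, was sought in RefSeq promoter windows of GRCh38.p14 that run from 250 bases before to 50 after a start. The table held 18 windows for 8 of the 10 genes, all but ACTB and TAGLN, and 3 of them held a match, 1 each for ACTG1, TPM4 and ACTN1, against 1.29% of all 35116 windows. The matches are shown in 30 bases each, with the motif in capitals, because genes that SRF controls carry it near their start. They lie at chr17:81512874-81512903 on the minus strand for ACTG1, chr19:16067355-16067384 on the plus strand for TPM4 and chr14:68977718-68977747 on the minus strand for ACTN1.
ACTG1: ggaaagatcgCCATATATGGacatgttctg
TPM4: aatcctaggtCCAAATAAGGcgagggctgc
ACTN1: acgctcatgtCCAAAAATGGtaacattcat

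The motifs begin 94, 173 and 171 bases before the RefSeq start that their own window was built on. TPM4 and ACTN1 also have windows at other starts, and those held no match. For ACTN1 the match lies downstream of coding bases 4 to 63 of the canonical transcript (chr14:68978994-68979053, minus strand), inside the gene. A match is a description of the letters only, and the 3 genes had ratios of −0.42, −0.89 and −0.92, beside a median of −0.90 for the 10 genes.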

How the data were processed

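The authors deposited 1 table of whole-number counts per gene for each library, without normalization. Per the submitters' processing notes, the tools were minimap2 2.11-r797, HISAT2 2.1.0 and featureCounts on hg38; options, strand setting and annotation release are not given in the sources used here. Neither is it stated whether Nanopore reads were corrected with short reads, which would make the libraries dependent. The Nanopore column name carries the tag talc, which no label explains. All tests treat the libraries as independent. The members and gene lists were chosen with earlier results of these data known. Symbols, positions and lengths came from GENCODE release 44 (hg38), which held 58207 of 58735 identifiers. CPM used library totals, and TPM divided Illumina counts by length first. Named were all 10 genes, and copies or other genes sharing 50-base words with them that had at least 10 counts in either library. Also named were overlapping genes with at least 10 Nanopore counts, the 3 highest and 3 lowest ratios of each list, the other paralogs and the markers. TPM1-AS and ENSG00000280143, with fewer Nanopore counts, were chosen after their values were seen. Of the 138 genes past that minimum that share words with TPM3, most are counted and not named. A gene and a sequence stretch that these rules would include are not reported here. Counts were tested with an exact conditional binomial test, with Benjamini-Hochberg adjustment over genes averaging 5 CPM or more. Shares were tested with Fisher's exact test (scipy 1.17.1). The binomial test and the ratio intervals were checked on simulated counts that held counting error only, and Fisher's exact test was not. Coding sequences were aligned with mafft 7.526, alternate contigs with minimap2 2.31. TMM came from edgeR 4.0.16. Per-gene intervals are exact Poisson or Clopper-Pearson at 95%. Amplified reads without molecular identifiers are not independent molecules, so intervals cover counting error only. Alternatives in scaling, pseudocount, length, filter and fold are given at the end.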

Additional observations from a re-analysis of the deposited data

How the results depend on the processing

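Gene length was the choice that moved most values. In place of CPM, Illumina TPM by union exonic length gave log2 ratios of 0.163 for ACTG1, 1.465 for ACTN1, 1.278 for TPM3, 1.286 for TPM4 and 0.347 for TAGLN. By mean transcript length ACTG1 had 0.201, ACTN1 0.259 and TPM4 0.07, and by canonical length ACTN1 had 0.339, TPM1 −0.124, TPM3 0.987 and TAGLN 0.361. All of these reversed the sign of the CPM ratio. By the exact binomial test, adjusted p was below 0.05 for ACTG1, for TPM3, and for ACTN1 and TPM4 by union length only. It was 0.271 and 0.126 for ACTN1 by mean and canonical length, and 0.841 for TPM4 by mean length. TAGLN had 0.574 and 0.557 by union and canonical length in that test. TPM1 had 0.909 by canonical length and was not called in CPM either. The median of the 10 genes was 0.255 by union, −0.544 by mean and −0.172 by canonical length, and by union length 4 were at least 2-fold higher by Nanopore and 1 by Illumina. For the 40 stress fibre genes, union, mean and canonical length gave 17, 4 and 12 at least 2-fold higher by Nanopore and 4, 6 and 2 by Illumina, with medians of 0.494, −0.24 and 0.264. Among all tested genes the shares on these scales were 33.2, 25.1 and 34.8% by Nanopore and 12.8, 17.9 and 11.1% by Illumina. At 4-fold in CPM, 1 of the 10 genes and 1 of the 40 were higher by Illumina (8.14% of tested genes). By Nanopore 0 of the 40 were (12.9%).

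Over all tested genes, those at least 2-fold higher by Nanopore numbered 4586 with a minimum of 1 CPM (27.4% of 16765) and 4586 with no filter (16.4% of 27972). A minimum of 20 CPM left 1176 by Nanopore and 2259 by Illumina (15.5% and 29.8% of 7582), and genes overlapping no other gene gave 195 and 1044 (6.94% and 37.2% of 2810).

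With Illumina counts divided by mean, union and canonical length, the Nanopore minus Illumina share of TAGLN was 1.11, 2.74 and 2.64 percentage points, and that of TPM2 −4.25, −26.86 and −19.18 points. TPM3 had 12.8 by union and 21.26 by canonical length, TPM4 8.46 by mean and 8.47 by union length, and TPM1 −0.07 by canonical length. ACTB kept its direction at −22.68 by mean length and ACTN1 at 47.71 by union length. Shares by mean and union length, and results without the genes whose overlapping neighbour had 10 or more Nanopore counts, were chosen after seeing the data. TMM or median-ratio scaling, a pseudocount of 0.1 or 5 CPM, totals without mitochondrial genes and added pseudogene copies reversed none of the 10 ratios, and the call of TAGLN was lost with median-ratio scaling.

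No paired analysis was possible because each platform has 1 library. Leaving out a library was not run for the same reason. At 2.48 CPM a count, the Nanopore depth limits TAGLN, ACTN4 and TPM1 most.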
